A study of Homo sapiens with 6 samples.

Results

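Ephrins, semaphorins, Slits and netrins are secreted or membrane-bound guidance cues, and together with their receptors they are described here as 70 genes of the 40396 in the deposited expression table. A rule on gene symbols, with no value in it, gave the members: 8 ephrins, 14 Eph receptors, 20 semaphorins of classes 3 to 7, 11 plexins and neuropilins, 7 Slits and Robos, and 10 netrins and netrin receptors. H1 is an established human embryonic stem cell line, and RNA-seq was performed on day 3 of its differentiation toward definitive endoderm (DE), the germ layer that gives rise to gut, liver and pancreas. All 6 samples received 50 ng/mL activin A on Matrigel for the 3 days, and 2.5 µM CHIR99021, which activates Wnt signaling, in the first 24 h. The 3 SAR samples also received 0.5 µM saracatinib (SAR), an inhibitor of Src family kinases, throughout, and the 3 control samples an equal volume of the solvent DMSO. By western blot, the paper reports no effective inhibition of Src phosphorylation at this dose. It reports lower phosphorylation of focal adhesion kinase at some of its sites. Each sample gave 1 library of mRNA. The library totals, recovered from the expression values, were 18877964 to 24419937 reads in control and 16681280 to 18389543 with SAR. Every SAR library was thus shallower than every control library, and raw read numbers cannot be compared between the groups. Whether the 3 samples of a group were separate cultures is not stated, so p-values measure the spread between these samples only.

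Guidance cues were first described on growing axons, which they attract or repel, and the same molecules position migrating cells, sharpen tissue boundaries and pattern blood vessels in the early embryo. Ephrins are bound to the cell surface and signal through Eph receptor tyrosine kinases, in both directions, between touching cells. Semaphorins signal through plexins, with neuropilins as co-receptors for most of class 3, Slits signal through Robo receptors, and netrins through DCC, neogenin and the UNC5 receptors. Src family kinases are known to act downstream of several of these receptors.

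Expression is given as FPKM, which is scaled by gene length and by the total of the library, so that levels can be compared between genes. Differences between SAR and control were tested with limma on log2(FPKM + 0.1) across 16371 genes, those whose mean reached 0.5 FPKM, which kept 57 of the 70 guidance genes. A gene is called upregulated or downregulated when its log2 fold change exceeds 1 in size and its adjusted p is under 0.05. With SAR, 2 of the 57 genes were upregulated, the ephrin EFNA1 and the semaphorin SEMA3G, and 2 were downregulated, the netrin NTN1 and the plexin PLXNA2. Each count is 3.51% of the tested members, beside 3.41% of all tested genes upregulated and 1.58% downregulated. With no minimum fold, 20 members (35.1%) were higher and 9 (15.8%) lower, beside 23.7% and 9.55% of all tested genes. Without control replicate 1 the upregulated members numbered 5, with EFNB1, EFNB2 and SEMA3C added, and without control replicate 3 the higher members numbered 12. The counts over all tested genes shifted too. Without control replicate 1, 722 genes were upregulated, against 559 with no library left out. Without control replicate 3, 2129 genes were higher, against 3885.

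Across all tested genes the median log2 fold change was 0.12, and small positive changes depended on scaling. After the libraries were rescaled to a common median ratio, which brings that median to 0.00, 14 members (24.6%) were higher and 10 (17.5%) lower, beside 13.8% and 15.5% of all tested genes. The median of the 57 members was 0.22 as deposited and 0.10 after rescaling. In 22 members (38.6%) all 3 SAR libraries lay above all 3 control libraries, and in 10 (17.5%) below, beside 35.5% and 15.2% of all tested genes. Summed over all 70 genes, expression was 389.8 to 409.7 FPKM in the control libraries (mean 397.1) and 380.0 to 420.0 FPKM in the SAR libraries (mean 400.5), so the total differed by less than the spread between samples while single genes moved in both directions. In bulk RNA, fewer cells expressing a gene and less RNA per cell cannot be told apart.

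**Figure D1:**
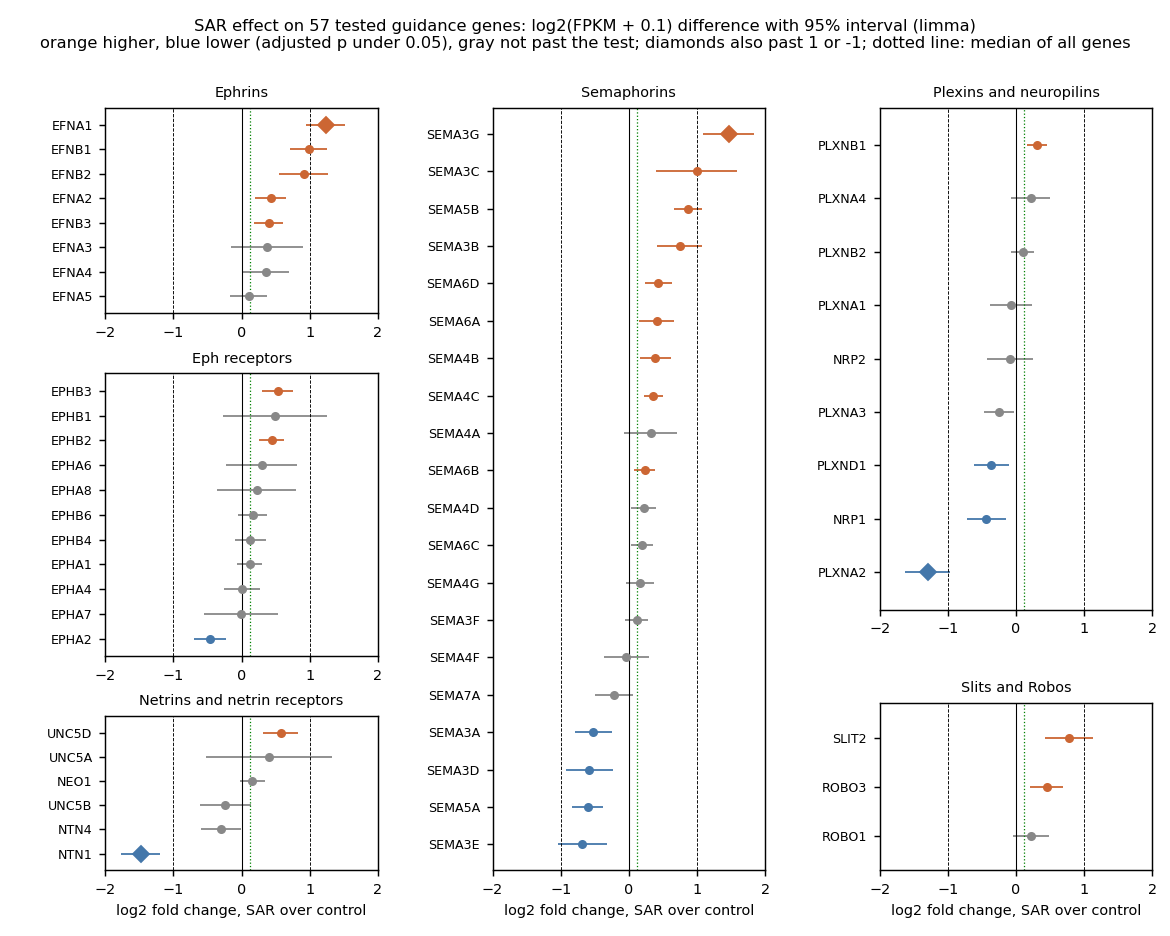
Log2 fold change (SAR minus control, on the log2(FPKM + 0.1) scale) of the 57 tested guidance genes by family, with 95% confidence intervals, diamonds for called genes, orange and blue for those past an adjusted p of 0.05, and the dotted line at the median of all tested genes, 0.12. NTN1 and PLXNA2 lie below -1, SEMA3G and EFNA1 above 1, and most members lie between.

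The samples expressed DE markers, and lists of markers of other cell types are given beside them. For comparison, 3.41% of all tested genes were upregulated and 1.58% downregulated, and 23.7% were higher and 9.55% lower with no minimum fold. Of 10 DE markers, 3 were upregulated (FOXA2, SOX17 and HHEX) and 4 downregulated (GSC, EOMES, CER1 and GATA4), of which SOX17 (0.93) and HHEX (0.90) were under the minimum fold after rescaling. With no minimum fold 3 DE markers were higher and 6 lower, with GATA6 (-0.58) and CXCR4 (-0.51) among the lower. The median log2 fold change of the 10 DE markers was -0.54. Their summed level, mostly CER1, was 3947 to 5047 FPKM in control and 2026 to 2091 with SAR. The paper reports more efficient DE differentiation with SAR at this dose, from flow cytometry and staining for FOXA2 and SOX17. Both of those genes are among the upregulated DE markers here. Whether the lower DE markers reflect a change in the share of DE cells was not tested. Of 8 node, notochord and floor plate markers, 5 were tested, of which 4 were upregulated (TBXT, CHRD, NOTO and FOXJ1) and 0 downregulated, with a summed level of 5.56 to 7.35 against 24.5 to 37.0 FPKM. Neural markers had 3 of 8 tested, with DCX upregulated (0.98 and under the minimum fold after rescaling), STMN2 higher by 0.36 and TUBB3 lower by -0.77 (adjusted p = 0.020 from limma), and their summed level, mostly STMN2, was 83.7 to 99.7 against 112.7 to 121.5 FPKM, while PAX6 and SOX1 stayed under 0.5 FPKM in every library. Neural crest markers had 3 of 6 tested and 1 upregulated (FOXD3), at 6.49 to 6.87 against 10.2 to 11.1 FPKM. Endothelial markers had 3 of 8 tested and 0 called in either direction by limma, with 2 of the 3 (VWF among them) past the test with no minimum fold, at 10.3 to 10.4 against 12.5 to 17.4 FPKM, and PECAM1, CDH5 and ERG stayed under 0.5 FPKM. At an unadjusted p under 0.05, 2 of these were higher and 1 lower, and voom called 0. Mesoderm markers had 5 of 8 tested, 1 upregulated (TBXT) and 1 downregulated (MIXL1). With no minimum fold 2 were higher, TBXT and TBX6 (0.82, adjusted p = 0.0021 from limma), and 1 was lower, and the list's median was 0.22. Their summed level was 51.1 to 54.6 against 28.6 to 41.7 FPKM, of which MIXL1 had a mean of 44.7 in control and 17.8 with SAR. All 7 pluripotency markers were tested, with 0 upregulated and 1 downregulated (NANOG), at 456 to 573 against 589 to 624 FPKM. With no minimum fold 2 were higher, SOX2 by 0.88 (adjusted p = 0.015 from limma) and TDGF1 by 0.20 (adjusted p = 0.047). After rescaling their log2 fold changes were 0.76 and 0.074. At an unadjusted p under 0.05 there were 4 higher pluripotency markers, with 0 upregulated by voom. Of the node list, 0 were lower at an unadjusted p under 0.05 or downregulated by voom. The part of these cell types in the guidance gene results was not tested.

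NTN1 encodes netrin-1, a secreted cue that attracts or repels depending on its receptor and that is made by the floor plate and by many epithelia. Its level was 14.1, 18.5 and 16.1 FPKM in control replicates 1, 2 and 3 and 5.06, 5.83 and 6.33 FPKM in SAR replicates 1, 2 and 3. The groups did not overlap, with every SAR library below every control library. The log2 fold change was -1.48 ± 0.12 (SE), with a 95% confidence interval of -1.77 to -1.19 and an adjusted p of 6.7e-04 from limma, and -1.60 after rescaling. Between 541 and 2899 reads stood behind each library's value. The gene (ENSG00000065320) lies at chr17:9021542-9244000 on the plus strand of GRCh38, and in GENCODE 29 its exons share no base with another gene.

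NTN4, a basement membrane netrin, did not pass the test, with 8.09 ± 0.77 FPKM in control and 6.57 ± 1.03 with SAR (SD, n = 3) and a log2 fold change of -0.30 (95% confidence interval -0.60 to -0.01, adjusted p = 0.10 from limma). NTN1 made up 65.8% ± 1.4 of the FPKM of the 4 netrins in control and 44.4% ± 6.0 with SAR, and NTN4 32.9% ± 0.85 and 50.6% ± 6.8 (SD, n = 3). The summed netrin level was 24.6 ± 2.9 FPKM in control and 12.95 ± 0.30 FPKM with SAR, a ratio of 0.526. NTN5 had 0.278, 0.210 and 0.187 FPKM in control and 0.616, 0.512 and 0.768 with SAR, from 11 to 44 reads, and its mean kept it out of the test. When no gene was filtered out, its log2 fold change was 1.17 ± 0.26 (SE) with an adjusted p of 0.039 from limma. NTN3 had at most 7 reads in any library.

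Of the 4 netrin receptors tested, 1 passed. NEO1, which encodes neogenin and was second to NTN1 in mean level in control and first with SAR, had 11.99 ± 0.97 FPKM in control and 13.3 ± 0.70 with SAR (SD, n = 3), a log2 fold change of 0.15 (95% confidence interval -0.03 to 0.34) that did not pass the test. UNC5D, a receptor that mediates repulsion from netrins, was higher with SAR by 0.58 (adjusted p = 0.0091 from limma), with 2.68 to 3.45 FPKM in control and 4.35 to 4.97 with SAR. UNC5B, with a log2 fold change of -0.24 (95% confidence interval -0.61 to 0.14), and UNC5A, with 0.40 (-0.52 to 1.32), did not pass. DCC, the classical attractive receptor, was at 0.0561 to 0.170 FPKM over the 6 libraries and UNC5C at 0.0958 to 0.264, so neither was tested.

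**Figure D2:**
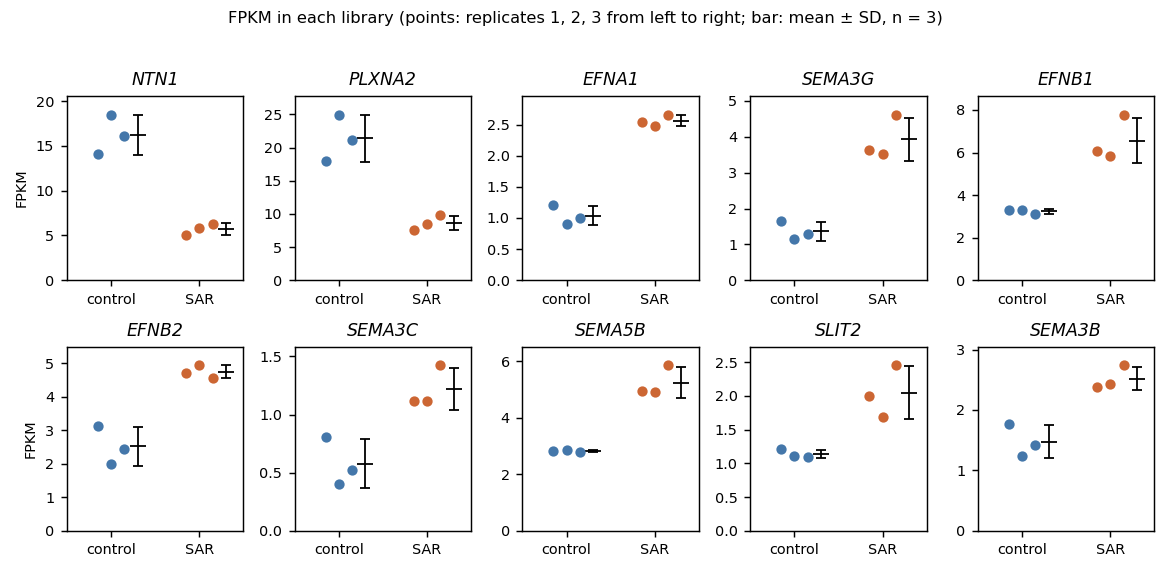
FPKM of the called and near-threshold guidance genes in each library, with control and SAR side by side, points for replicates 1 to 3 from left to right and a bar for the mean ± SD (n = 3). Each panel has its own axis, which starts at 0. The genes were picked for their differences in these same libraries, and in every panel the SAR libraries do not overlap the control libraries. Of all tested genes, 35.5% had every SAR library above and 15.2% every SAR library below the control libraries.

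PLXNA2 encodes plexin-A2, a receptor for class 6 semaphorins and, with neuropilins, for class 3. Its level was 17.9, 25.0 and 21.2 FPKM in the control replicates and 7.60, 8.46 and 9.80 FPKM in the SAR replicates. Every SAR library was lower than every control library, and control replicate 2 was the highest of the 6. The log2 fold change was -1.29 ± 0.14 (SE; 95% confidence interval -1.62 to -0.96, adjusted p = 0.0015 from limma) and -1.42 after rescaling, from 1755 to 8448 reads a library. The gene (ENSG00000076356) lies at chr1:208022242-208244320 on the minus strand and shares no exon base with another gene.

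Among the plexin-A genes PLXNA2 went from the most to the second most abundant. It made up 51.4% ± 3.0 of plexin-A FPKM in control and 31.0% ± 0.71 with SAR, and PLXNA1 30.4% ± 1.9 and 42.9% ± 2.8 (SD, n = 3). PLXNA1 itself had a log2 fold change of -0.08 (95% confidence interval -0.39 to 0.23) and PLXNA4 0.21 (-0.08 to 0.50), and neither passed the test. PLXNA3 had -0.26 (adjusted p = 0.074 from limma) as deposited and passed after rescaling, at -0.38 (adjusted p = 0.026). The summed plexin-A level was 41.4 ± 4.4 FPKM in control and 27.8 ± 3.4 with SAR.

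Of the other plexins, PLXND1, the receptor for SEMA3E in blood vessels, was lower with SAR by -0.36 (log2, adjusted p = 0.043 from limma), and PLXNB1, a receptor for SEMA4D, was higher by 0.31 (adjusted p = 0.013). Under 15 alternative settings, given below, PLXND1 passed in 9 and PLXNB1 in 13. PLXNB1 was 0.19 after rescaling and no longer passed. PLXNB2, second to PLXNA2 in mean level in control and first of the plexins and neuropilins with SAR, did not pass, with 17.6 ± 0.67 FPKM in control, 18.8 ± 1.6 with SAR (SD, n = 3) and a log2 fold change of 0.09 (95% confidence interval -0.08 to 0.27), which turned to -0.03 after rescaling. Of the neuropilins, NRP1, a co-receptor for SEMA3A and for VEGF, was lower by -0.43 (adjusted p = 0.033 from limma), from 1.72, 2.16 and 1.94 FPKM to 1.32, 1.55 and 1.35. NRP1 passed under 10 of the 15 alternative settings. NRP2 had -0.09 (95% confidence interval -0.43 to 0.24) and did not pass. PLXNB3 and PLXNC1 were under the minimum level.

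SEMA3G encodes a secreted class 3 semaphorin, known from blood vessels, that signals through neuropilins. It had 1.65, 1.15 and 1.29 FPKM in the control replicates and 3.65, 3.53 and 4.62 FPKM in the SAR replicates. Every SAR library was higher than every control library, and SAR replicate 3 was the highest of the 6. The log2 fold change was 1.47 ± 0.16 (SE; 95% confidence interval 1.09 to 1.84, adjusted p = 0.0015 from limma) and 1.35 after rescaling, from 123 to 429 reads a library. The gene (ENSG00000010319) lies at chr3:52433053-52445085 on the minus strand and shares no exon base with another gene.

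All 20 semaphorins were tested, and 9 were higher and 4 lower with no minimum fold, beside 23.7% and 9.55% of all tested genes. After rescaling 6 were higher and 4 lower, beside 13.8% and 15.5%. Class 3 was split, with 3 genes higher (SEMA3B, SEMA3C and SEMA3G), 3 lower (SEMA3A, SEMA3D and SEMA3E) and SEMA3F not past the test, while its summed level was 37.4 ± 2.6 FPKM in control and 36.0 ± 0.59 with SAR (SD, n = 3). SEMA3C, which guides neural crest cells in the heart's outflow tract, had 0.808, 0.403 and 0.521 FPKM in control and 1.12, 1.11 and 1.43 with SAR. Its log2 fold change was 1.00 ± 0.25 (SE), short of the minimum fold, with an adjusted p of 0.024 from limma, and control replicate 1 was the highest of its group. SEMA3B, a repellent cue and candidate tumour suppressor, had 1.77, 1.24 and 1.41 FPKM against 2.38, 2.44 and 2.74, a log2 fold change of 0.74 ± 0.14 (adjusted p = 0.0092).

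SEMA3E, which repels vessels through PLXND1, had 10.8, 14.2 and 10.8 FPKM in control and 8.27, 7.81 and 6.05 with SAR, a log2 fold change of -0.68 ± 0.15 (SE, adjusted p = 0.016 from limma). SEMA3A, the repellent that collapses growth cones, was lower by -0.52 (adjusted p = 0.015), and SEMA3D by -0.58 (adjusted p = 0.024). SEMA3E made up 31.7% ± 3.0 of class 3 FPKM in control and 20.5% ± 3.2 with SAR, and SEMA3G 3.67% ± 0.83 and 10.9% ± 1.6. SEMA3F, the most abundant of the class, had 14.6 ± 1.0 FPKM against 15.8 ± 0.88, a log2 fold change of 0.12 (95% confidence interval -0.05 to 0.29).

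The transmembrane class 5 genes moved in opposite directions. SEMA5A, which can attract or repel axons, had 16.5, 21.4 and 18.4 FPKM in control and 11.7, 12.4 and 12.6 with SAR, a log2 fold change of -0.61 ± 0.10 (SE, adjusted p = 0.0053 from limma). SEMA5B, its closest relative, had 2.83, 2.84 and 2.80 FPKM in control and 4.93, 4.91 and 5.86 with SAR, a log2 fold change of 0.86 ± 0.09 (adjusted p = 0.0012). Neither gene's groups overlapped, and the share of SEMA5B in the FPKM of the class was 13.2% in control and 29.9% with SAR.

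Class 4 and class 6 semaphorins, membrane proteins that signal through plexin-B and plexin-A receptors, had log2 fold changes of 0.23 to 0.43 among the 5 that passed. In class 6, SEMA6D (0.43), SEMA6A (0.41) and SEMA6B (0.23) were higher, and SEMA6C (0.19) did not pass. SEMA6A had 15.7 ± 2.3 FPKM in control, where SEMA5A was higher in mean level, and 20.6 ± 0.93 with SAR, the highest mean of the semaphorins there (SD, n = 3). In class 4, SEMA4B (0.39) and SEMA4C (0.36) were higher, and SEMA4A (0.32), SEMA4D (0.22), SEMA4F (-0.04) and SEMA4G (0.16) did not pass. Genes on the opposite strand cover 27.4% of the exon bases of SEMA4G, and the strand setting of the counting is not known, so their reads cannot be told apart. After rescaling, only SEMA6D (0.31) and SEMA4C (0.24) of these 5 still passed the test. SEMA7A, a lipid-anchored semaphorin, had a log2 fold change of -0.22 (95% confidence interval -0.50 to 0.06).

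EFNA1 encodes ephrin-A1, a lipid-anchored ligand that binds EPHA2 among other EphA receptors. It had 1.20, 0.908 and 1.00 FPKM in the control replicates and 2.55, 2.48 and 2.66 FPKM in the SAR replicates. The SAR libraries were close to each other and all above the control libraries. The log2 fold change was 1.24 ± 0.12 (SE; 95% confidence interval 0.95 to 1.52, adjusted p = 0.0012 from limma) and 1.12 after rescaling, from 41 to 106 reads a library. With a pseudocount of 1 FPKM in place of 0.1 it was 0.81 and under the minimum fold. The gene (ENSG00000169242) lies at chr1:155127460-155134857 on the plus strand and shares no exon base with another gene.

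All 8 ephrins had a positive log2 fold change as deposited, beside 64.0% of all tested genes. With no minimum fold 5 of the 8 were higher past the test, and 3 after rescaling, where EFNA5 turned to -0.02. Higher genes were 23.7% of all tested genes, and 13.8% after rescaling. The 3 ephrin-B genes, which encode transmembrane ligands for EphB receptors, all passed. EFNB1, which acts in craniofacial boundaries, had 3.32, 3.29 and 3.11 FPKM in control and 6.06, 5.84 and 7.79 with SAR, a log2 fold change of 0.99 ± 0.11 (SE, adjusted p = 0.0018 from limma), just under the minimum fold. EFNB2, a marker of arterial endothelium that is also expressed in other embryonic tissues, had 3.14, 1.99 and 2.44 FPKM in control and 4.72, 4.95 and 4.57 with SAR, a log2 fold change of 0.91 ± 0.15 (adjusted p = 0.0062). On the opposite strand AL138689.2 covers 26.2% of the exon bases of EFNB2, and the same limit holds for its reads. EFNB3, the most abundant ephrin, had 8.503 ± 0.92 FPKM in control and 11.2 ± 0.67 with SAR (SD, n = 3), a log2 fold change of 0.40 that was 0.28 and not past the test after rescaling.

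The summed ephrin-B level was 14.3 ± 0.76 FPKM in control and 22.5 ± 1.6 with SAR (SD, n = 3), a ratio of 1.58. EFNA2 was higher by 0.42 (adjusted p = 0.018 from limma) and no longer passed after rescaling. EFNA5 (0.10), EFNA3 (0.37) and EFNA4 (0.36) did not pass, and 44.7% and 14.96% of the exon bases of EFNA3 and EFNA4 are shared on the same strand with AL691442.1, which leaves their counts uncertain. EFNA5 had 8.26 ± 0.64 FPKM in control and 8.94 ± 1.3 with SAR.

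**Figure D3:**
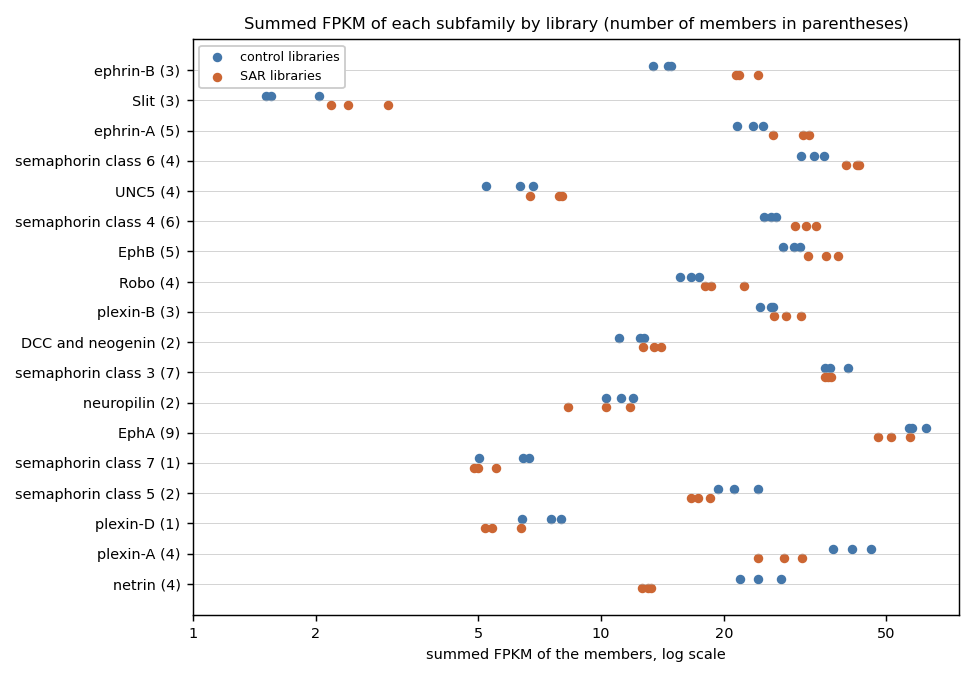
Summed FPKM of each guidance subfamily with a summed control mean of at least 1 FPKM, on a log axis, 1 point a library. Subfamilies are ordered by their ratio of SAR to control. Plexin-C, under that level (0.204 against 0.442 FPKM), is not shown. Netrins (24.6 against 12.95 FPKM) and plexin-A (41.4 against 27.8) were lower in the SAR libraries, and ephrin-B (14.3 against 22.5) was higher.

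Of the 14 Eph receptors 11 were tested, 2 were higher, 1 was lower and 0 were called by limma at the minimum fold. Among all tested genes 23.7% were higher and 9.55% lower, and 3.41% were upregulated and 1.58% downregulated. At an unadjusted p under 0.05 the counts were also 2 and 1, and voom on recovered read counts called 0. EPHA2, a receptor for EFNA1 and the guidance gene with the highest mean level of all 70, had 34.5, 30.7 and 32.0 FPKM in control and 21.0, 22.8 and 26.9 with SAR. Its log2 fold change was -0.46 ± 0.10 (SE, adjusted p = 0.013 from limma) and -0.59 after rescaling. The groups did not overlap. EPHA2 made up 54.7% ± 0.57 of EphA FPKM in control and 45.2% ± 1.7 with SAR (SD, n = 3).

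EPHB2 and EPHB3, receptors for the ephrin-B ligands that sort cells along the intestinal crypt, were higher by 0.44 (adjusted p = 0.0070 from limma) and 0.53 (adjusted p = 0.0080) on the log2 scale. EPHB2 had 2.89 to 3.32 FPKM in control and 4.27 to 4.36 with SAR. EPHB3 had 4.69 to 6.01 FPKM and 7.44 to 7.71. EPHB4, the venous partner of EFNB2 and the most abundant EphB gene, had a log2 fold change of 0.13 (95% confidence interval -0.10 to 0.36), and EPHA4 one of 0.00 (-0.26 to 0.26). EPHA1, close to EPHB4 in mean level in both groups, with 17.2 ± 1.5 FPKM in control and 18.7 ± 0.65 with SAR, had 0.12 (-0.06 to 0.29), and -0.0055 after rescaling. The log2 fold changes of EPHA6 (0.29), EPHA7 (-0.01), EPHA8 (0.22), EPHB1 (0.49) and EPHB6 (0.16) did not pass either.

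Only 3 of the 7 Slits and Robos were expressed at the minimum level. SLIT2, a secreted repellent, had 1.21, 1.11 and 1.10 FPKM in control and 2.00, 1.69 and 2.46 with SAR, a log2 fold change of 0.78 ± 0.15 (SE, adjusted p = 0.0095 from limma) with no overlap between the groups. ROBO1, a Slit receptor and the most abundant Robo gene, had 14.0 ± 1.3 FPKM in control and 16.4 ± 2.2 with SAR (SD, n = 3), a log2 fold change of 0.22 (95% confidence interval -0.04 to 0.48) that did not pass. ROBO3, the divergent Robo that is known from midline crossing, was higher by 0.45 (adjusted p = 0.018), with 1.91 to 2.36 FPKM in control and 2.71 to 3.08 with SAR.

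Over all members the 28 tested genes that did not pass had log2 fold changes between -0.30 and 0.49, and their 95% confidence intervals reached from -0.61 to 1.32. The 13 genes under the minimum mean were EPHA3, EPHA5, EPHA10, SLIT1, SLIT3, ROBO2, ROBO4, DCC, UNC5C, NTN3, NTN5, PLXNB3 and PLXNC1. Control replicate 1 was the highest of the 6 libraries for 8 of these 13 (61.5%), beside 32.2% of the 24025 genes under that mean and 10.5% of the tested genes, and it had 33169 genes above 0 where the other libraries had 29506 to 30109. Among the 57 tested members it was the highest for 5 (8.77%). ROBO4, an endothelial Robo, had 21 reads in control replicate 1 and at most 3 in any other library. PLXNC1, the receptor of SEMA7A, had 0.296, 0.159 and 0.158 FPKM in control and 0.472, 0.382 and 0.472 with SAR, and did not pass when no gene was filtered out (log2 fold change 0.86, adjusted p = 0.14 from limma).

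**Figure D4:**
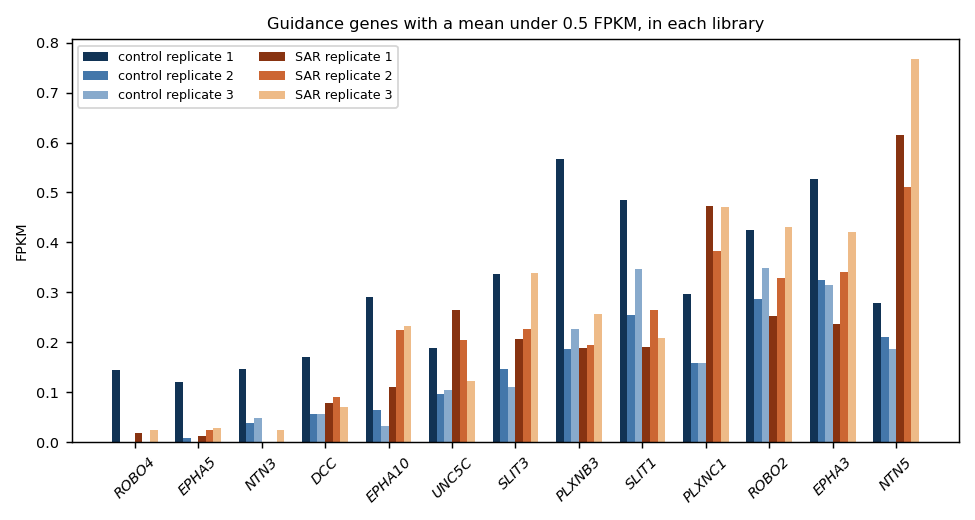
FPKM of the 13 guidance genes with a mean under 0.5 FPKM as 1 bar for each of the 6 libraries. Control replicate 1 is the highest bar for 8 of the 13 genes, and NTN5 and PLXNC1 are the genes whose 3 SAR libraries lie above all control libraries.

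Proteins that carry the signal inside the cell, 57 genes listed for this purpose, were compared in the same way. Of 49 tested, 2 were upregulated and 0 downregulated by limma, beside 3.41% and 1.58% of all tested genes. With no minimum fold 9 were higher and 7 lower, beside 23.7% and 9.55% of all tested genes. At an unadjusted p under 0.05, 10 were lower, and voom called 0 downregulated. NGEF, an exchange factor that links EphA receptors to RhoA, had 0.805, 0.678 and 0.787 FPKM in control and 1.70, 1.59 and 2.73 with SAR, a log2 fold change of 1.26 ± 0.21 (SE, adjusted p = 0.0062). DPYSL5, a member of the collapsin response mediator family, had 0.959, 0.505 and 0.564 FPKM against 1.46, 1.83 and 1.91, a log2 fold change of 1.28 ± 0.24 (adjusted p = 0.0087). Neither gene was called with a pseudocount of 1 FPKM. L1CAM, an adhesion molecule that joins NRP1 in the SEMA3A receptor, was lower by -0.92 (adjusted p = 0.0035) and at -1.04 after rescaling. FYN, a Src family kinase, was higher by 0.59 (adjusted p = 0.0024), and PTK2, which encodes focal adhesion kinase, did not pass with -0.12 (adjusted p = 0.13). The median of the list was 0.11, close to the 0.12 of all tested genes.

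Among 28 other guidance cues and receptors, 17 were tested, 1 was upregulated and 0 were downregulated by limma. When no minimum fold was asked, 6 were higher and 3 lower. Of all tested genes 3.41% were upregulated and 1.58% downregulated, and 23.7% were higher and 9.55% lower. At an unadjusted p under 0.05, 4 were lower, and voom called 0 downregulated. The median log2 fold change of this list was 0.04. The upregulated gene was CXCL12, a chemokine that directs cell migration, with 1.13, 0.606 and 0.732 FPKM in control and 2.75, 2.90 and 2.85 with SAR and a log2 fold change of 1.71 ± 0.20 (SE, adjusted p = 0.0019). Its receptor CXCR4, which is also on the list of DE markers, was lower by -0.51 (adjusted p = 0.0087). DSCAM, a co-receptor for netrin-1, had 4.22, 5.11 and 4.65 FPKM in control and 2.22, 2.24 and 2.54 with SAR, a log2 fold change of -0.97 ± 0.10 (adjusted p = 0.0012), and -1.09 after rescaling. DRAXIN, an antagonist that binds netrins, was higher by 0.68 (adjusted p = 0.0069). FLRT3, a membrane protein that binds UNC5 and Robo receptors, was higher by 0.60 (adjusted p = 0.0030).

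To show the sequence next to the start of a downregulated and an upregulated gene, the 250 bases before the RefSeq start of PLXNA2 and SEMA3G are given 5′ to 3′ on the strand of the gene, from GRCh38.p14, with CG dinucleotides in capitals. The PLXNA2 window is chr1:208244385-208244634 and the SEMA3G window chr3:52445104-52445353, both on the minus strand.
PLXNA2: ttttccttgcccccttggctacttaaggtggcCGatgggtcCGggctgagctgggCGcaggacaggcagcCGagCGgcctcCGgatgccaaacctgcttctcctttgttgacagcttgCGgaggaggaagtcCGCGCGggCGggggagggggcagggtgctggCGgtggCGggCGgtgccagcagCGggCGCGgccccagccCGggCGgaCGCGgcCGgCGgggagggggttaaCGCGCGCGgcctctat
SEMA3G: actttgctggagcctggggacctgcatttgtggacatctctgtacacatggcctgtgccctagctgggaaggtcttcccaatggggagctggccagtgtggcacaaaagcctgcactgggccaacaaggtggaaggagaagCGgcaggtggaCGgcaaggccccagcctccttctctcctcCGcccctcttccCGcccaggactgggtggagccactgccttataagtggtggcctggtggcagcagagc

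The PLXNA2 window holds 27 CG dinucleotides and the SEMA3G window 4, beside a median of 11 over the 35116 windows of the RefSeq table, and their GC contents are 72.4% and 62.0% beside a median of 58.0%. EFNA1 has 24 CG dinucleotides in its window, which lies inside the first exon of a longer GENCODE 29 transcript and is not printed. The 300-base windows, with 50 bases after the start, were searched on both strands for TGTTTAC, a forkhead core motif, and GGAATG, a TEAD core motif. Neither was found in the windows of PLXNA2, EFNA1 or SEMA3G, and the window of NTN1 was not analysed here. Of the 92 windows of 60 guidance genes in the table, 3 held the forkhead letters (SEMA5B, SEMA3E and SEMA4B) and 10 the TEAD letters (8 genes, EPHA2, SEMA3B and NTN4 among them), beside 3.42% and 14.0% of all windows. A match is a description of letters and not a binding site, and the lack of one says only that these letters are not in the window.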

How the data were processed

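The authors selected mRNA with oligo(dT), sequenced paired-end reads and deposited 1 table of FPKM values for 40396 Ensembl genes, with 1 column per library and 3 libraries per group. The submitters' processing notes name HISAT2, Subread, featureCounts, DESeq2 and genome build GRCh38.p13, while the annotation release and the strand setting are not given in the sources used here. FPKM correct for gene length and total reads only. They are not counts, so the DESeq2 test the study's methods name was replaced by limma 3.58.1 (R 4.3.3), fitted to log2(FPKM + 0.1) with moderated variances that follow the expression level, for genes whose mean reached 0.5 FPKM, two-sided, with Benjamini-Hochberg adjustment over all 16371 genes. Fold changes on this scale understate the change of low genes.

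Library totals (16681280 to 24419937) and whole reads per gene, within a tolerance of 0.001 reads, were recovered from the steps of the FPKM values for 40394 genes and were used for depth and for an alternative with voom. Chi-square per degree of freedom between libraries of 1 group was 3.64 to 12.0, so no library was a copy of another.

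The members, the 2 further gene lists and the marker lists were chosen with earlier results of these data known. Called members are given with all their values, other members past the test with all values at an absolute log2 fold change of at least 0.7 and otherwise mostly as fold changes, and the most abundant members of each family with their levels. Other members were given beside these to account for the families, and L1CAM, FYN, PTK2, CXCR4, DSCAM, DRAXIN and FLRT3 were named after their values were seen. Positions and exon overlaps are from GENCODE 29 on GRCh38, and start windows from RefSeq. On simulated data, 193 of 200 changed genes (96.5%) were called in the right direction and 7 unchanged genes were called, of 16416 tested. That share holds only for the changes simulated. The share that would be found among changes of the size of these 4 genes, among changes under the minimum fold, or among low genes, was not tested. Alternatives were a replicate block, voom, pseudocounts of 1 and 0.01, a minimum mean of 1 FPKM or none, scaling by median ratios or quantiles, variances without the intensity trend, no minimum fold and each library left out. Summaries used Python 3.11.15, pandas 2.3.3 and numpy 2.4.6, and plots matplotlib 3.10.9.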

Additional observations from a re-analysis of the deposited data

How the results depend on the processing

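NTN1, PLXNA2 and SEMA3G were called under all 15 alternatives that kept the minimum fold, with log2 fold changes of -1.60 to -1.35, -1.42 to -1.18 and 1.06 to 1.60, and EFNA1 under 14, with 0.81 at a pseudocount of 1 FPKM. The upregulated guidance genes then numbered 1, and 4 with a pseudocount of 0.01 FPKM (EFNB1 and SEMA3C added), 4 with voom, 20 with no minimum fold, and 2 to 5 with 1 library left out (5 without control replicate 1, with EFNB1, EFNB2 and SEMA3C added). The downregulated genes numbered 9 with no minimum fold and otherwise 2. Of the 29 members past the test with no minimum fold, 18 passed under every alternative and 11 did not pass without control replicate 3 (EFNA2, EFNB3, NRP1, PLXNB1, PLXND1, ROBO3, SEMA3C, SEMA3D, SEMA4B, SEMA6A and SEMA6B). The higher members numbered 12 without that library and up to 19 without others, counts added after the data had been seen. Among all tested genes, the higher ones numbered 2129 without that library, 2366 to 3751 without others and 3885 with none left out. After median-ratio rescaling EFNA5 (-0.017), EPHA1 (-0.0055) and PLXNB2 (-0.028) changed sign. The members' median was 0.14 at a pseudocount of 1 FPKM, 0.10 after rescaling and 0.092 after quantile normalization.

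Of all genes, 559 were upregulated and 259 downregulated, beside 169 and 141 at a pseudocount of 1 FPKM, 340 and 409 after quantile normalization, 403 and 362 after rescaling, 369 upregulated at a minimum mean of 1 FPKM, and 3885 and 1563 with no minimum fold. Alternatives for the other lists were added later too. The effector list had 0 upregulated genes at a pseudocount of 1 FPKM, 9 higher and 7 lower with no minimum fold, 1 downregulated after rescaling, and 0 to 1 downregulated with a library left out (1 without SAR replicate 3). The other cues had 6 higher and 3 lower with no minimum fold, 1 downregulated after rescaling or quantile normalization, and 0 to 1 with a library left out (1 without control replicate 1 or SAR replicate 3). Deviations from the group means were at most weakly correlated between samples with the same replicate number (r = 0.073, 0.0029 and 0.025). Between samples with different numbers r was -0.083 to 0.067. So few libraries cannot settle whether the numbers pair the samples. The replicate block gave 546 upregulated and 274 downregulated genes, and 2 upregulated, 2 downregulated, 20 higher and 8 lower members. The causes of these shifts were not tested. Depth limits the members under 0.5 FPKM, most with fewer than 100 reads a library.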
